A study of Mus musculus with 12 samples.

Results

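The proteasome genes of sorted mouse glomerular endothelial cells (GEC) were described across WT and Alport (AS) mice. Members were the genes whose names run from Psma to Psmg with a number and that the deposited tables type as protein coding. There were 39 such genes, and with Psmb10 the members were 40 of 19564 genes listed. Of the members, 5 are the immunoproteasome subunits Psmb8, Psmb9 and Psmb10 and the activator subunits Psme1 and Psme2, and 35 are the other members. Of 48 genes with such names the type column called 9 something other than protein coding, although the Gencode M21 annotation types all of them as protein coding. Psmb10 was one of these and was kept because the choice names it. The other 8 (Psma7, Psmb2, Psmb6, Psmc1, Psmd1, Psmd9, Psmd11 and Psmf1) are given apart.

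The proteasome cuts ubiquitin-tagged proteins into peptides. Its core particle is a barrel of alpha rings around beta rings, and the beta subunits Psmb5, Psmb6 and Psmb7 carry the cutting sites. Interferon gamma induces Psmb8 (LMP7), Psmb9 (LMP2) and Psmb10 (MECL1), which take the places of Psmb5, Psmb6 and Psmb7 in new particles and shift the cuts towards peptides that fit MHC class I. The regulatory cap is made of the Psmc ATPases and the Psmd subunits, and it feeds ubiquitinated substrates to the core. Psme1 and Psme2 form the PA28 alpha-beta activator, whereas Psme3 (PA28 gamma) and Psme4 (PA200) are activators found mainly in the nucleus. Leukocytes carry immunoproteasomes without stimulation, and many other cells, endothelium among them, gain them when interferon acts on them.

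RNA was sequenced from 12 libraries of 4-month-old C57BL/6 mice, 3 WT and 3 AS, with 1 dimtdT and 1 brighttdT library from each mouse. All mice, WT included, carried a Tek-cre transgene and a Cre-dependent tdTomato reporter at ROSA26. The Tek promoter also drives Cre in part of the blood lineage. AS mice were Col4a5 -/-, the model of X-linked Alport syndrome that carries a mutation in the type IV collagen alpha-5 gene. Glomeruli were freed with collagenase and sieves, and tdTomato cells were sorted as dim or bright. The replicates are separate mice of each genotype, so the p-values of AS over WT measure the spread between mice. The main fits of brighttdT over dimtdT and of the interaction hold both libraries of a mouse without a mouse term. Fits with the mouse as a block are among the alternatives.

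Levels are given as CPM, read counts scaled to library size by TMM over the 12 libraries, and differences as log2 fold changes. The libraries held between 11440169 and 15074909 counts, of which the members took 0.246 to 0.347%. Col4a5 stood at 67.6, 37.1 and 73.9 CPM in WT-dimtdT and at 3.60, 1.99 and 1.36 CPM in AS-dimtdT (log2 fold change -4.69, adjusted p 0.00982, edgeR quasi-likelihood test). In brighttdT it ranged from 4.92 to 9.996 CPM in WT and from 3.13 to 6.79 CPM in AS, which overlapped. Endothelial markers, Pecam1, Cdh5 and Tek among 14, summed to 749 to 1389 CPM in WT-dimtdT, 243 to 335 in AS-dimtdT, 11036 to 16987 in WT-brighttdT and 16508 to 19353 in AS-brighttdT. Leukocyte markers summed to 9154 to 15616 CPM in WT-dimtdT and 17408 to 19925 in AS-dimtdT (18 genes), and to 55.4 to 103 and 113 to 153 CPM in the brighttdT groups (14 genes, since Cd3e, Cd3g, Itgam and Nkg7 were not in that table). The dimtdT libraries labelled endothelial were therefore rich in leukocyte transcripts, with Ptprc (CD45) at 698 to 1447 CPM against Pecam1 at 33.4 to 99.1 CPM, and in bulk RNA fewer cells of a type cannot be told apart from less RNA per cell.

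The immunoproteasome genes lie at separate places in the GRCm38 genome. Psmb8 (chromosome 17, 34197721 to 34201454, plus strand) and Psmb9 (chromosome 17, 34181987 to 34187764, minus strand) sit in the MHC class II region beside the peptide transporter genes. Psmb10 lies on chromosome 8 at 105935735 to 105938444 (minus strand). Psme1 (55578123 to 55581529, plus strand) and Psme2 (55587441 to 55591113, minus strand) lie close together on chromosome 14. Psmb9 overlaps Tap1 on the opposite strand, Psme1 overlaps Emc9, and antisense genes overlap Psmb8 and Psmb10. The strand setting of the counting is not given in the sources used here, so reads of these pairs may not be separated, and Psme2 shares sequence with a listed copy, Psme2b.

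Promoter windows from RefSeq (GRCm38.p6, 250 bases before to 50 after the start) were found for 33 of the 40 members and were searched on both strands for 4 motifs. The core of the interferon-stimulated response element (GAAA, any 2 bases, GAAA) was present in 3.44% of 32851 windows of that length, in 1 of the 5 immunoproteasome and PA28 alpha-beta genes (Psme1) and in 3 of 28 other members (Psmb3, Psmd4 and Psmg4). The gamma-activated site TTCNNNGAA was present in 8.3% of windows, in Psmb8 and in 2 of 28 others (Psmd2 and Psmg1). The antioxidant response core TGACNNNGC (12.4% of windows) was in 4 of the 28 others and the NF-kappaB letters (GGG, any 2 bases, TTTCC, in 1.63%) in none, and neither was in the 5. The windows of Psmb8 (chr17:34197945-34198244, plus strand) and Psme1 (chr14:55578244-55578543, plus strand) are shown because they hold the interferon motifs, in capitals, which begin 97 bases before and 9 bases after the start. Both windows lie inside the gene spans given above, because the RefSeq start used lies downstream of the Gencode M21 start of the gene. These are letter matches and not measured sites.
Psmb8: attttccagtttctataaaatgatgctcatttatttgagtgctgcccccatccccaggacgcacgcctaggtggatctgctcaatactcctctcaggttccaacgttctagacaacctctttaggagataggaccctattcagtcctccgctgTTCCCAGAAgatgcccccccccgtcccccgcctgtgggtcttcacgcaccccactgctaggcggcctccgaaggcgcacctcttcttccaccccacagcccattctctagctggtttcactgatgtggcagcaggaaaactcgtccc
Psme1: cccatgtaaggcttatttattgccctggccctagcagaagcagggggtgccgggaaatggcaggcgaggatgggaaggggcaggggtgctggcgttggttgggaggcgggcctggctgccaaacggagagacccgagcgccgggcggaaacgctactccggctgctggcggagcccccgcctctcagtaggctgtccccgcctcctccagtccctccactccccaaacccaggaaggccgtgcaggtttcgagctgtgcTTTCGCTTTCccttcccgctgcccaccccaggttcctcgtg

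Per kilobase, with the union of exons as length, the members with the highest mean level over the 12 libraries were Psmd8 (104 CPM per kilobase), Psmd6 (76.0), Psma1 (73.4) and Psmb7 (66.2). The order depends on the length used. In the length column of the deposited tables Psmb1 has 1042 bases against 4595 in the union, and Psmd8 has 8089 against 3057. Psme1 was at 44.9, Psme2 at 37.4, Psmb10 at 27.2, Psmb8 at 19.9, Psmb5 at 18.5 and Psmb9 at 13.1 CPM per kilobase. The order below Psmd8 differed between groups, since Psma1 was at 81.0 in AS-dimtdT and 56.3 in AS-brighttdT, and Psme1 (59.7) lay above Psmb7 (55.7) in AS-dimtdT, within their spread. The core assembly chaperones Psmg1 (3.64) and Psmg3 (1.44) were low. Psma8, the alpha subunit of the testis, had 0 to 17 counts per library. Psmb11, the beta subunit of the thymic cortex, was not listed in the dimtdT table and had 0 to 9 counts in brighttdT.

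**Figure D1:**
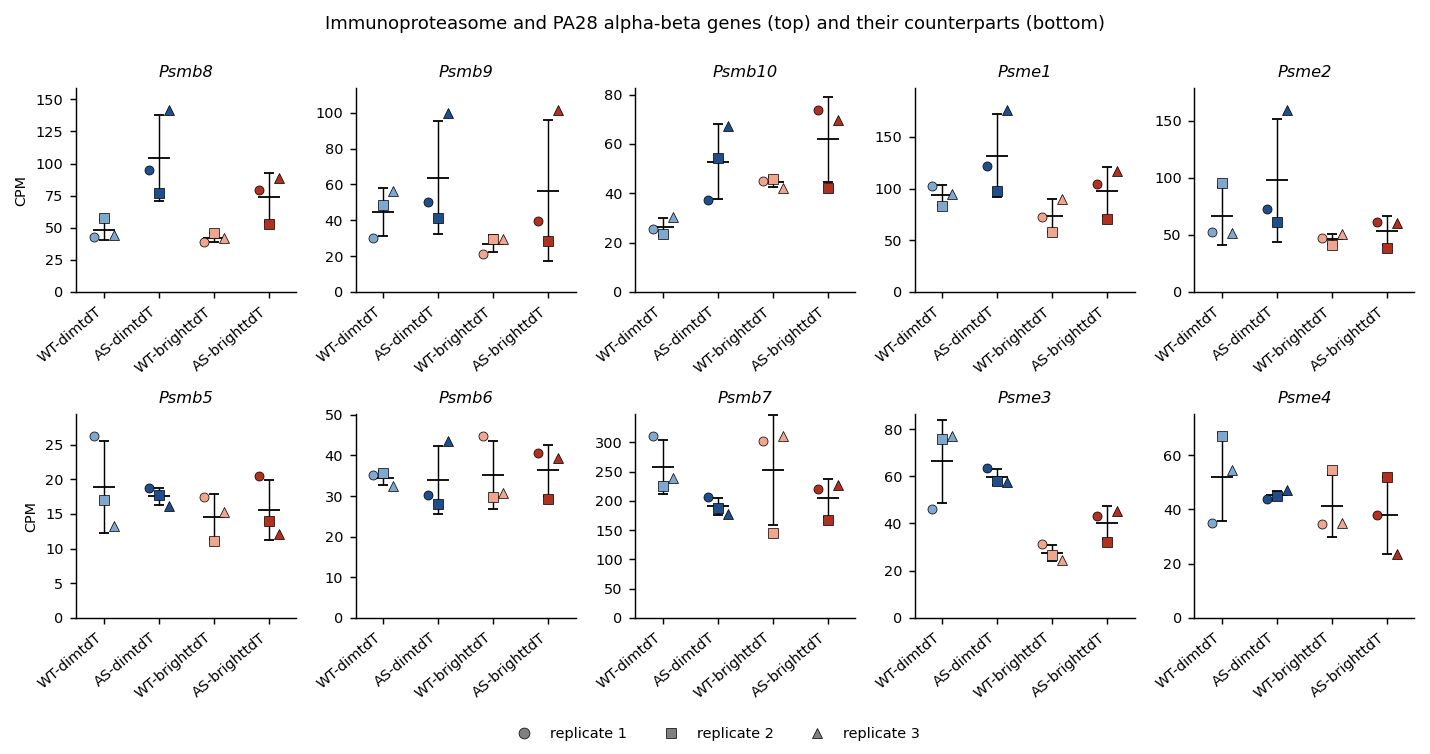
CPM of the immunoproteasome and PA28 alpha-beta genes (top row) and of the subunits or activators they are set against (bottom row) in the 4 groups, with 1 point for each of the 3 libraries and bars for the mean and SD. Psmb8 and Psmb10 of AS-dimtdT lie above all WT-dimtdT points, while the bottom row shows no gene whose AS points all lie above WT in dimtdT.

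In dimtdT GEC, AS over WT, Psmb8 was 2.12-fold higher and Psmd5 was lower, and no other member passed edgeR's test. DESeq2 called 3 members, Psmb8 and Psmb10 as higher and Psmd5 as lower, where it called 15.1% of all genes. Psmb8 stood at 43.2, 57.3 and 44.3 CPM in WT-dimtdT (48.2 ± 7.86, SD, n = 3) and at 95.1, 76.8 and 142 CPM in AS-dimtdT (104 ± 33.4, SD, n = 3). Every AS library lay above every WT library. The log2 fold change was 1.08 (SE 0.28, edgeR's quasi-likelihood test, Benjamini-Hochberg adjusted p 0.0489). The call was close to the threshold and held in 4 of 17 alternative settings, with adjusted p from 0.00776 to 0.984. Without AS-dimtdT replicate 3 the value was 0.81 (adjusted p 0.175), and leaving out any other library also ended the call.

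Psmb10 did not pass with edgeR, while DESeq2 called it (0.96, adjusted p 0.0226). It was at 25.3, 23.4 and 30.3 CPM in WT-dimtdT and at 37.2, 54.3 and 67.2 CPM in AS-dimtdT, with no overlap (log2 fold change 0.97, SE 0.28, adjusted p 0.0703, edgeR). Psmb9 was at 30.1, 48.2 and 56.1 CPM in WT-dimtdT and at 50.1, 41.3 and 99.8 CPM in AS-dimtdT, and the groups overlapped (0.48, SE 0.38, adjusted p 0.478). Most of that difference came from AS replicate 3, since without this library the log2 fold change of Psmb9 was 0.01.

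The activator subunits overlapped between genotypes. Psme1 was at 102, 83.5 and 94.9 CPM in WT-dimtdT and at 122, 97.6 and 176 CPM in AS-dimtdT (0.46, SE 0.25, adjusted p 0.287). Psme2 was at 52.1, 95.7 and 51.6 CPM in WT-dimtdT and at 72.6, 61.0 and 159 CPM in AS-dimtdT (0.52, SE 0.41, adjusted p 0.474). AS replicate 3 was again the highest library for both, and without it the values were 0.21 and -0.02.

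Over the 38 members tested in dimtdT, 1 passed as higher and 1 as lower, or 5.26%, against 8.63% of all 14637 genes (2.21% higher and 6.42% lower). The 5 immunoproteasome and PA28 alpha-beta genes had a median log2 fold change of 0.52 and all 5 were above 0. The 33 other members had a median of -0.11, with 11 above 0, and all genes had a median of -0.02. Without AS-dimtdT replicate 3 the medians were 0.21 (4 of 5 above 0) and -0.15. In 4 members AS lay wholly above WT and in 4 wholly below, where the background is 16.1 and 15.5% of genes (31.6% in all).

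Psmd5, the chaperone that helps to build the base of the cap, was at 76.8, 61.3 and 82.8 CPM in WT-dimtdT and at 35.2, 47.8 and 36.5 CPM in AS-dimtdT. The AS libraries lay wholly below WT (log2 fold change -0.92, SE 0.23, adjusted p 0.0485, edgeR), and the call held in 4 of 17 alternatives. Psmd5 overlaps the gene Cutal, so the strand limit applies to it as well, and Psmb7, Psmd13, Psmd3 and Psmc3 overlap other genes in the same way. The constitutive counterparts did not pass. Psmb7 was at 311, 225 and 238 CPM in WT-dimtdT and at 206, 188 and 178 CPM in AS-dimtdT, without overlap (-0.47, adjusted p 0.161). Psmb5 (-0.14), Psmb6 (-0.06), Psme3 (-0.18) and Psme4 (-0.24) overlapped between genotypes. Among the other members the highest value was that of the ubiquitin receptor Psmd4 (0.64, adjusted p 0.318) after Psmb8 and Psmb10, and the lowest that of Psmg1 (-1.40, SE 0.80, adjusted p 0.314), which had at most 8.95 CPM in these libraries.

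Markers of other cells moved with genotype in dimtdT. Proximal tubule markers (8 genes) summed to 1025 to 4599 CPM in WT-dimtdT and 15.5 to 339 CPM in AS-dimtdT, and the leukocyte sum was higher in each AS library than in any WT library. With the leukocyte score in the fit the 5 genes had a median of 0.9987 with 5 above 0 (Psmb8 1.48, adjusted p 0.294). With the proximal tubule score the median was -0.11 with 2 above 0 (Psmb8 0.27, adjusted p 0.984). Neither sum overlapped between the genotypes in dimtdT, so its part in the result and that of genotype cannot be told apart.

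In brighttdT GEC, AS over WT, no member passed the test. The values of Psmb8 were 38.8, 45.7 and 41.7 CPM in WT-brighttdT and 79.6, 52.6 and 89.1 CPM in AS-brighttdT, and the groups did not overlap (log2 fold change 0.74, SE 0.24, adjusted p 0.129, edgeR). Psmb9 was at 21.4, 29.7 and 29.4 CPM in WT-brighttdT and at 39.6, 28.6 and 101 CPM in AS-brighttdT (0.999, SE 0.41, adjusted p 0.195). AS replicate 3 was highest here too, and without it the difference of Psmb9 was 0.26.

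Psmb10 was at 45.2, 46.0 and 42.2 CPM in WT-brighttdT and at 73.7, 42.1 and 69.7 CPM in AS-brighttdT (0.40, SE 0.25, adjusted p 0.384). In the AS group, replicate 2 was the lowest library for Psmb8, Psmb9 and Psmb10, and for Psmb9 and Psmb10 it lay within or below the WT range. Psme1 ranged from 58.4 to 90.1 CPM in WT-brighttdT and from 70.6 to 117 CPM in AS-brighttdT (0.32, adjusted p 0.5001). Psme2 ranged from 41.3 to 50.6 CPM and from 38.8 to 61.5 CPM (0.13, adjusted p 0.797).

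Of 39 members tested in brighttdT 0 passed, against 0.452% of all 14396 genes. At an unadjusted p under 0.05 there were 3 higher and 2 lower members (7.69 and 5.13%, against 9.98 and 11.9% of all genes), and DESeq2 called 1 (Psmd13), where it called 7.76% of all genes. The 5 genes had a median of 0.40 with 5 above 0, the 34 others a median of -0.02 with 17 above 0, and all genes a median of -0.03. In 3 members (Psmb8, Psmd13 and Psme3) AS lay wholly above WT and in 0 wholly below, where the background is 15.6 and 9.08% of genes (24.7% in all). Without AS-brighttdT replicate 3 the median of the 5 was 0.26, with the leukocyte score in the fit it was 0.58 with 5 above 0, and with the proximal tubule score it was -0.01 with 2 above 0. The leukocyte sums of 55.4 to 103 CPM in WT-brighttdT and 113 to 153 CPM in AS-brighttdT did not overlap. The sums of 5 podocyte markers, 160 to 227 CPM in WT-brighttdT and 279.9 to 412 CPM in AS-brighttdT, did not overlap either, and their part in the result was not tested. Proximal tubule markers summed to 273 to 1762 CPM in WT-brighttdT and 23.1 to 339 CPM in AS-brighttdT.

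Among the other members, the cap subunit Psmd13 had the highest value, at 27.0, 29.8 and 19.7 CPM in WT-brighttdT and 58.9, 41.4 and 46.8 CPM in AS-brighttdT (0.87, SE 0.26, adjusted p 0.106), and it overlaps Sirt3. Psmg4, a chaperone of alpha-ring assembly, had the lowest, at 35.7, 12.8 and 30.7 CPM against 12.8, 10.5 and 17.0 CPM, with overlap (-1.07, SE 0.40, adjusted p 0.163). Psmb5 (0.01), Psmb6 (-0.03), Psmb7 (-0.39), Psme3 (0.48) and Psme4 (-0.19) did not pass. Psmd1, the large scaffold of the cap and typed otherwise, was at 33.3, 54.2 and 64.1 CPM in WT-brighttdT and at 106, 76.4 and 107 CPM in AS-brighttdT (0.86, adjusted p 0.114, edgeR), and DESeq2 called it.

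**Figure D2:**
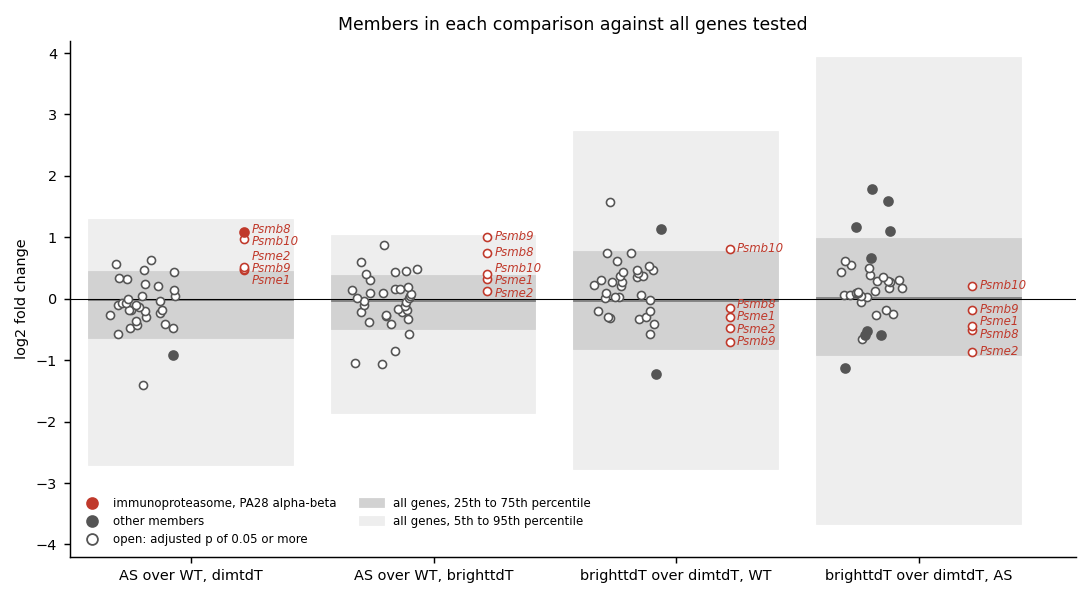
Log2 fold change of each tested member in the 4 comparisons, with the immunoproteasome and PA28 alpha-beta genes in red and the others in grey, filled where the adjusted p was under 0.05, over bands that hold 25th to 75th and 5th to 95th percentiles of all genes. All 5 red points lie above 0 in both AS over WT comparisons, and 1 of 5 does in each brighttdT over dimtdT comparison.

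The change of AS over WT was compared between brighttdT and dimtdT in an interaction test on 39 members. Of these, 0 passed, against 3.77% of 15084 genes (2.96% higher and 0.815% lower), 1 member (Psmd5, 0.92, adjusted p 0.201) was higher at an unadjusted p under 0.05, as were 11.5% of all genes (6.95% were lower, and 0 members), and DESeq2 called 0, where it called 7.86% of all genes. The differences were -0.30 for Psmb8, 0.57 for Psmb9, -0.53 for Psmb10, -0.10 for Psme1 and -0.35 for Psme2, with adjusted p from 0.509 to 0.925. The highest other value was that of Psmg1 (1.48, adjusted p 0.392) and the lowest that of Psma8 (-2.47, adjusted p 0.353), which rests on at most 17 counts a library. The median of all genes in this test was 0.13, and it was -0.03 with library sizes alone as the scaling, so a value is to be read against that shift. Whether the genotype difference of any member differed between the subpopulations was not detectable here.

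Each immuno subunit was set against the subunit whose place it takes, as a ratio of levels per length within a library. Psmb8 to Psmb5 was 0.438, 0.892 and 0.889 in WT-dimtdT and 1.35, 1.16 and 2.32 in AS-dimtdT. Here length is the union of exons, on which all AS-dimtdT libraries lay above 1 and all WT-dimtdT libraries below. On the length column of the deposited tables the WT-dimtdT ratios were 0.576, 1.17 and 1.17, so whether a library lies above 1 depends on the length used. The ratio was 2.19-fold higher in AS (exact permutation test, two-sided, p = 0.1), and 0.1 is the smallest p that 3 against 3 libraries allow.

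Psmb10 to Psmb7 was 0.164, 0.209 and 0.255 in WT-dimtdT and 0.362, 0.580 and 0.757 in AS-dimtdT, again without overlap (2.63-fold, exact p = 0.1). Both a higher Psmb10 and a lower Psmb7 entered this ratio. Psmb9 to Psmb6 was 0.437, 0.690 and 0.882 in WT-dimtdT and 0.849, 0.751 and 1.17 in AS-dimtdT, and the groups overlapped (1.41-fold, exact p = 0.3). The Psmb8 share of Psmb8 and Psmb5 together was 41.6 ± 9.63% in WT-dimtdT and 60.4 ± 8.51% in AS-dimtdT (SD, n = 3). With the deposited length, which differs from the union of exons, the Psmb8 share was 48.1 and 66.6%, and the fold differences between groups were the same.

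In brighttdT all 3 ratios overlapped between genotypes. Psmb8 to Psmb5 was 0.591, 1.10 and 0.727 in WT and 1.04, 0.997 and 1.95 in AS (1.62-fold, exact p = 0.3). Psmb9 to Psmb6 was 0.244, 0.511 and 0.487 in WT and 0.5004, 0.501 and 1.31 in AS (1.76-fold, exact p = 0.3). Psmb10 to Psmb7 was 0.300, 0.637 and 0.273 in WT and 0.673, 0.503 and 0.618 in AS (1.59-fold, exact p = 0.3). Between subpopulations, taken as groups, only Psmb10 to Psmb7 in WT did not overlap among the 3 ratios in the 2 genotypes, and it was 1.82-fold higher in brighttdT (exact p = 0.1). Since dimtdT and brighttdT libraries of a number come from 1 mouse, the ratios were also compared within each mouse. Psmb10 to Psmb7 was higher in brighttdT in 3 of 3 WT mice (mean log2 difference 0.86 ± 0.76, SD, n = 3 mice), Psmb9 to Psmb6 lower in 3 of 3 WT mice (-0.71 ± 0.24) and Psmb8 to Psmb5 lower in 3 of 3 AS mice (-0.28 ± 0.09), each with an exact sign-flip p = 0.25, the smallest that 3 pairs allow. The other 3 of these 6 had both signs. With 12 comparisons of groups and a floor of 0.1, none could pass an adjusted threshold.

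**Figure D3:**
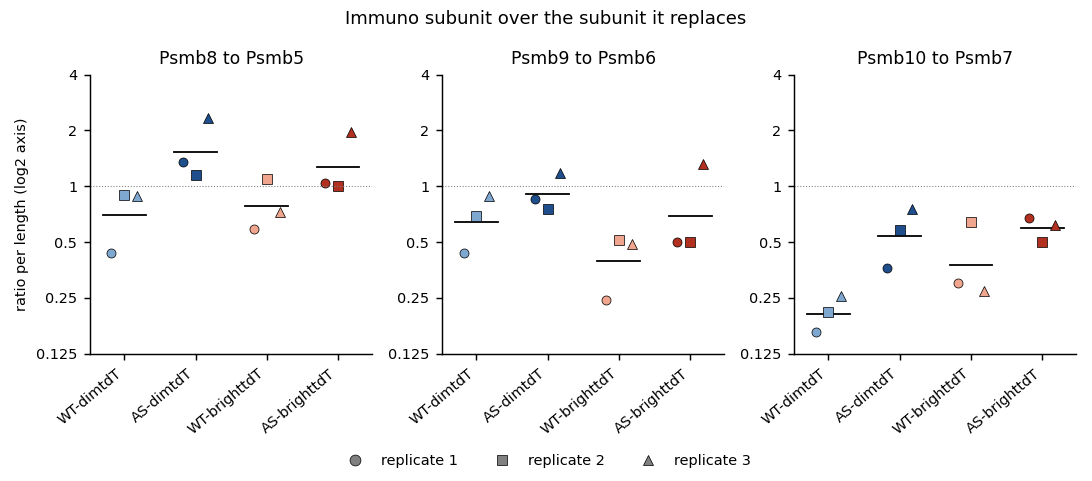
Ratio of each immuno subunit to the subunit it replaces, per length of the union of exons and on a log2 axis, with 1 point per library, a bar at the mean of the log2 ratios and a dotted line at 1. Psmb8 to Psmb5 in AS-dimtdT lies above all 3 WT-dimtdT libraries, while the brighttdT groups overlap, and the place of the line at 1 depends on the length used.

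Between the subpopulations of WT mice, brighttdT over dimtdT, 2 of 38 members passed, or 5.26% against 25.3% of all 14247 genes. Psmd7, a cap subunit of the lid, was higher in brighttdT, at 38.7, 45.0 and 50.4 CPM against 25.8, 16.6 and 20.7 CPM (log2 fold change 1.14, SE 0.30, adjusted p 0.0228). Psme3 was lower, at 31.1, 26.5 and 24.5 CPM against 46.1, 76.0 and 77.1 CPM (-1.23, SE 0.31, adjusted p 0.0190). Neither gene overlapped between the subpopulations. Over the members 6 lay wholly higher and 3 wholly lower in brighttdT, against 20.8 and 21.0% of genes (41.8% in all). No member passed without WT replicate 2 or 3 of either subpopulation. With the mouse as a block 4 members passed, where 31.2% of all genes passed. The block adds Psmd5 (0.74, adjusted p 0.0343) and the chaperone Psmg2 (1.57, adjusted p 0.0490).

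No immunoproteasome or PA28 alpha-beta gene passed in that comparison with edgeR (1 of 5, higher, at an unadjusted p under 0.05, as were 19.5% of all genes), and DESeq2 called Psmb10, where it called 29.1% of all genes. Psmb10 was the only 1 of the 5 with a value above 0, and its libraries did not overlap (0.80, SE 0.28, adjusted p 0.0639). Psmb9 (-0.70, adjusted p 0.159) and Psme2 (-0.47, adjusted p 0.320) lay wholly lower in brighttdT, while Psmb8 (-0.15) and Psme1 (-0.29) overlapped. The median was -0.29 over the 5, 0.22 over the 33 others (23 above 0) and -0.04 over all genes. For Psmb8 the log2 difference of -0.15 had an SE of 0.27, between subpopulations whose leukocyte marker sums were 55.4 to 103 and 9154 to 15616 CPM.

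In AS mice, brighttdT over dimtdT, 9 of 39 members passed, or 23.1% against 55.1% of all 14052 genes. The 5 higher were Psmg1, Psmd5, Psmd7, Psmd3 and Psmc3, and the 4 lower were Psmg4, Psmd14, Psme3 and Psma1. The libraries of 6 members lay wholly higher and those of 4 wholly lower, against 32.0 and 30.2% of genes (62.2% in all). Psmd5 was at 118, 80.1 and 166 CPM in AS-brighttdT against 35.2, 47.8 and 36.5 CPM in AS-dimtdT, without overlap (log2 fold change 1.60, SE 0.27, adjusted p 0.000646). Psmd7 was at 56.5, 39.0 and 64.8 CPM against 23.7, 18.8 and 28.6 CPM (1.16, SE 0.25, adjusted p 0.00283). Psmg1, a partner of Psmg2 in alpha-ring assembly, was at 7.43, 7.05 and 5.39 CPM against 0.64, 1.82 and 3.35 CPM (1.79, SE 0.48, adjusted p 0.00943).

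Psmg4 was at 12.8, 10.5 and 17.0 CPM in AS-brighttdT against 31.8, 28.3 and 26.8 CPM in AS-dimtdT (-1.12, SE 0.24, adjusted p 0.00304). Psmd14, the deubiquitinase of the lid, was at 30.0, 24.3 and 26.3 CPM against 39.2, 41.9 and 39.5 CPM (-0.59, SE 0.19, adjusted p 0.0236). Psme3 was at 43.1, 32.2 and 45.3 CPM against 63.6, 57.9 and 57.6 CPM (-0.58, SE 0.19, adjusted p 0.0267). The calls of Psmg1, Psmd5, Psmd7, Psmd3 and Psmg4 held in 15 of 15 alternatives. The others were lost in some, and 5 members passed without AS-dimtdT replicate 1 and also without AS-dimtdT replicate 3. Over all genes 46.6 and 48.1% passed in these fits.

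Of the immunoproteasome and PA28 alpha-beta genes 0 passed in that comparison with edgeR (1 lower at an unadjusted p under 0.05, as were 29.2% of all genes), and DESeq2 called 1 (Psme2), where it called 52.8% of all genes. Psme2 was at 61.5, 38.8 and 60.7 CPM in AS-brighttdT against 72.6, 61.0 and 159 CPM in AS-dimtdT (-0.87, SE 0.35, adjusted p 0.0557), and with the mouse as a block it passed (-0.77, adjusted p 0.0211). Psmb8 (-0.51, adjusted p 0.127), Psme1 (-0.45, adjusted p 0.162) and Psmb9 (-0.19) had lower values in brighttdT, and Psmb10 a higher one (0.21). The median of the 5 was -0.45, that of the 34 others 0.15 (25 above 0) and that of all genes 0.02. The genes typed otherwise that passed were Psmd1 (1.17), Psmd9 (1.13) and Psmc1 (0.75), all higher in brighttdT. Both genotype and subpopulation comparisons share libraries, so their counts are given side by side only.

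The changes of the members were smaller at the median than those of all genes. Their median size of log2 fold change was 0.30 and 0.26 in the AS over WT comparisons of dimtdT and brighttdT, and 0.35 and 0.31 between subpopulations in WT and AS. For all genes these were 0.51, 0.42, 0.79 and 0.94. Within 0.5 of 0 on the log2 scale lay 78.9, 79.5, 73.7 and 61.5% of members, against 49.3, 56.8, 34.3 and 29.6% of genes. Members and all genes were not matched for count level, so these shares are a description.

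**Figure D4:**
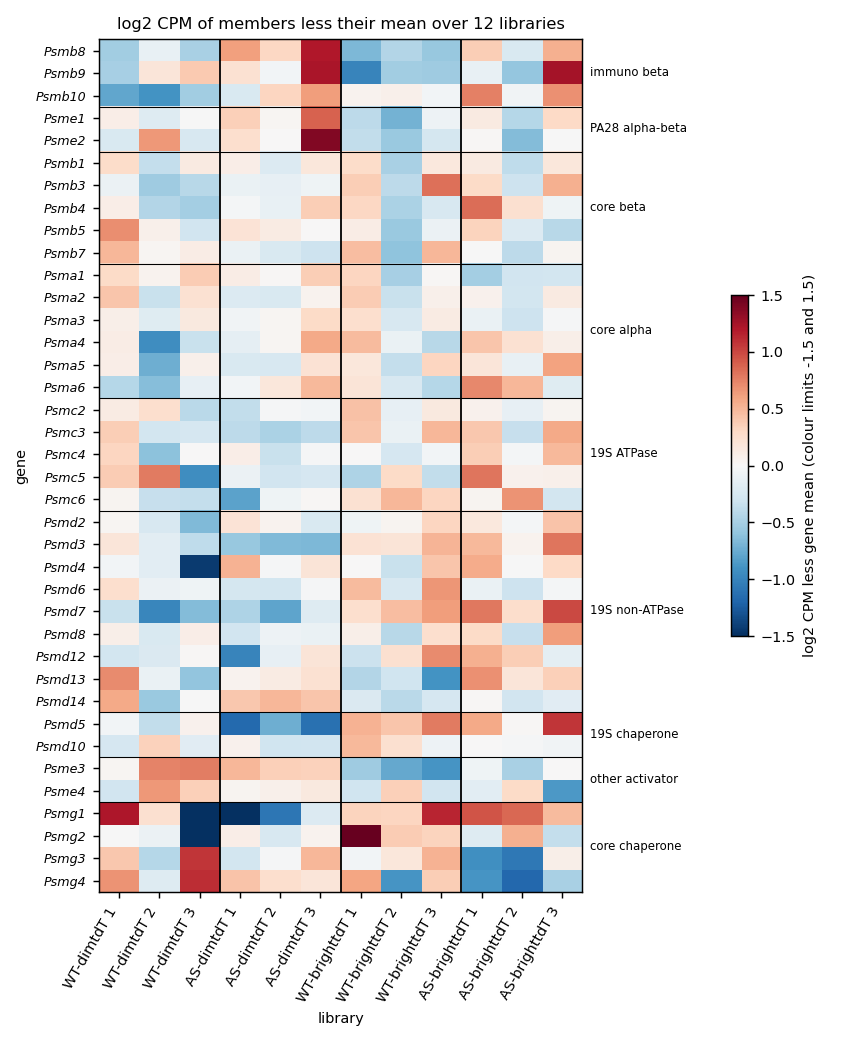
Log2 CPM of 38 members (without Psma8 and Psmb11) in each of 12 libraries less the gene's mean over all libraries, ordered by role, with 4 values past the colour limits. The darkest red cells among the 5 top rows are those of AS replicate 3 in dimtdT (Psmb8, Psmb9 and Psme2) and in brighttdT (Psmb9), while most core and cap rows hold both signs within a group.

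By role, the alpha subunits (6 tested in dimtdT) had median log2 differences, AS over WT, of 0.04 in dimtdT and 0.10 in brighttdT. In the same order the constitutive beta subunits had -0.04 and -0.11, and the ATPases (5) -0.18 and -0.12. The non-ATPase cap subunits (9) had -0.01 and 0.09. The core assembly chaperones Psmg1 to Psmg4 had -0.39 and -0.95, with wide spreads, since Psmg2 alone ranged from 1.77 to 9.47 CPM in dimtdT. Psmf1, the inhibitor PI31 and typed otherwise, had 0.25 and -0.04 (adjusted p 0.667 and 0.949).

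Other genes of the pathway were taken as a list of 23, made up of assembly factors, shuttle receptors and the transcription factors of subunit genes, of which 22 were listed (all but Paaf1). In AS over WT 0 passed in dimtdT (at an unadjusted p under 0.05, 3 higher and 1 lower) and 0 in brighttdT (3 and 2) with edgeR, and DESeq2 called 3 in dimtdT and 1 in brighttdT. At that unadjusted p, 10.3 and 15.9% of all genes were higher and lower in dimtdT and 9.98 and 11.9% in brighttdT. Of all genes edgeR called 8.63% in dimtdT and 0.452% in brighttdT, and DESeq2 called 15.1 and 7.76%. Pomp, the maturation factor of the core, was at 44.4, 38.3 and 33.5 CPM in WT-dimtdT and at 76.4, 67.3 and 74.6 CPM in WT-brighttdT (0.96, SE 0.26, adjusted p 0.0228), and its value in AS mice was 0.70 (adjusted p 0.0216). Nfe2l1, which drives subunit genes when proteasome activity falls, was at 50.4, 79.0 and 50.3 CPM in WT-brighttdT and at 132, 128 and 127 CPM in AS-brighttdT, without overlap (1.04, SE 0.22, adjusted p 0.0592, edgeR). It is the gene that DESeq2 called in brighttdT, and it passed in 3 of 17 alternatives. In dimtdT its libraries overlapped between genotypes (0.09).

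Between subpopulations, 3 of the 22 passed in WT, all higher in brighttdT (the shuttle factor Ubqln2 1.43, Zfand5 1.35 and Pomp), and with the mouse as a block Nfe2l1 passed too (0.99, adjusted p 0.0237). In AS 11 passed as higher, led by Nfe2l1 (1.90, SE 0.20, adjusted p 2.42e-05) and Ubqln2 (1.24), and 3 as lower. These were 13.6% of the list in WT against 25.3% of all genes, and 63.6% in AS against 55.1%. The lower ones were the cap deubiquitinase Uchl5 (-1.91), the small cap subunit Sem1 (-1.07) and the transcription factor Nfe2l2 (-1.02).

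Genes of interferon signalling and of MHC class I peptide loading formed a list of 17, because Psmb8 to Psmb10 and Psme1 to Psme2 are textbook targets of that pathway. In AS over WT 0 passed in dimtdT and 0 in brighttdT, with 5 higher at an unadjusted p under 0.05 in each (edgeR), and medians of 0.38 and 0.53. Of all genes 8.63% passed in dimtdT and 0.452% in brighttdT, and 10.3 and 9.98% were higher at that unadjusted p. DESeq2 called 2 and 3, Tap1 in both, against the same 15.1 and 7.76% of all genes. Tap1, the peptide transporter that shares its promoter region with Psmb9, was at 55.9, 63.2 and 47.0 CPM in WT-dimtdT and at 102, 100.1 and 299 CPM in AS-dimtdT (1.56, SE 0.44, adjusted p 0.0626). In brighttdT it was at 63.8, 69.4 and 71.8 CPM in WT and at 210.4, 115 and 252 CPM in AS (1.42, SE 0.28, adjusted p 0.0547). AS lay wholly above WT in both subpopulations. Over the alternatives the value of Tap1 ran from 0.29 to 2.54 in dimtdT and from 0.75 to 1.77 in brighttdT.

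Nlrc5, the activator of class I genes, was at 212, 199 and 492 CPM in AS-dimtdT and 37.9, 29.9 and 223 CPM in AS-brighttdT, with AS replicate 3 highest in both. So the mouse of AS replicate 3 gave the highest Psmb9, Nlrc5 and Tap1 values in both of its libraries. Tap2 was 0.48 and 0.65 in AS over WT (adjusted p 0.294 and 0.292).

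Irf1, which binds interferon response elements, was at 1148, 1267 and 1188 CPM in WT-brighttdT and at 236, 228 and 182 CPM in WT-dimtdT (2.53, SE 0.22, adjusted p 6.61e-05), and it was 2.84 in AS. Irf8, another interferon regulatory factor, was at 451, 512 and 698 CPM in WT-brighttdT. In AS-brighttdT it was at 1722, 941 and 2392 CPM (1.53, SE 0.32, adjusted p 0.0574). In brighttdT over dimtdT, Irf8 was lower in WT (-0.77, adjusted p 0.0488) and higher in AS (0.79, adjusted p 0.0394, with overlap). These calls held in 5 and 9 of 15 alternatives. Ifngr1, the ligand-binding receptor chain for interferon gamma, was lower in brighttdT in WT (-2.98) and AS (-3.30). From the list 2 passed as higher and 5 as lower in WT (41.2% against 25.3% of all genes), and 5 and 4 in AS (52.9% against 55.1%).

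**Figure D5:**
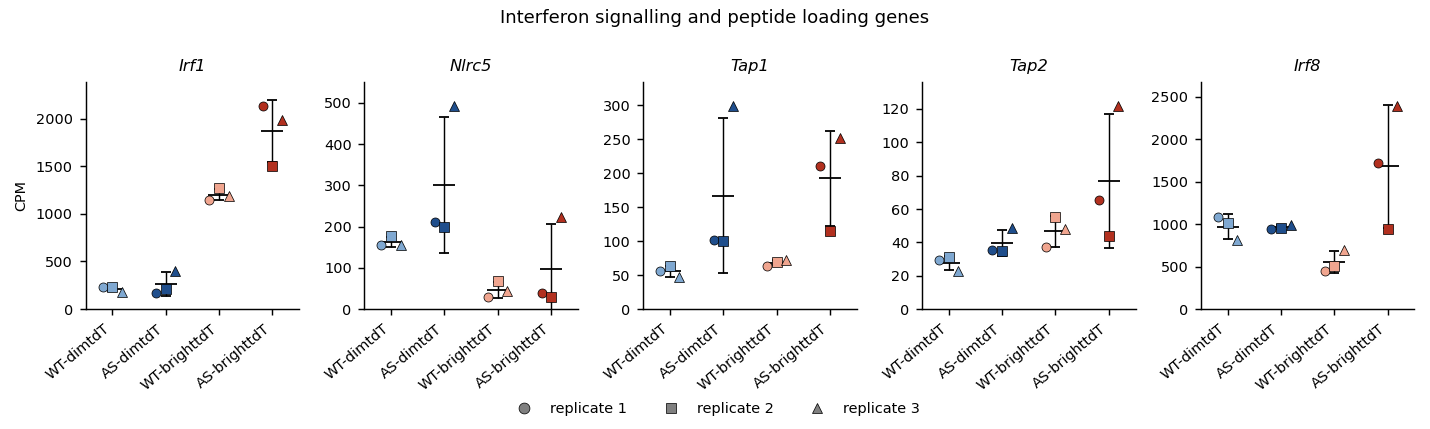
CPM of 5 interferon signalling and peptide loading genes in the 4 groups, with 1 point for each library and bars for the mean and SD. The triangles of AS replicate 3 stand highest for Nlrc5 and Tap1 in both AS groups, and Irf1 is higher in all brighttdT than in all dimtdT libraries.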

How the data were processed

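RNA of dimtdT and brighttdT GEC was analysed from 12 libraries, grouped by genotype and subpopulation as the labels give them. The authors made stranded poly-A libraries, aligned 150-base read pairs to GRCm38.p5 with STAR (2.6.0c, per the submitters' processing notes) and Gencode M16, and deposited raw read counts per gene, in row-filtered form, in a dimtdT and a brighttdT table. Their RPKM values, and the tables' own fold change, log2 CPM and p-value columns, which hold the authors' comparisons, were not used. Exon lengths and coordinates were taken from Gencode M21 on GRCm38, a later release than the one counted.

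ERCC spike-ins (92) were left out. Counts were scaled by TMM and tested with edgeR's quasi-likelihood test (edgeR 4.0.16, R 4.3.3, filterByExpr), and p-values were adjusted by Benjamini-Hochberg over all genes tested, at 0.05. AS over WT was fitted within each table, and brighttdT over dimtdT and the interaction on the 15768 genes in both. The fits were tested on simulated data. Ratios were compared by exact permutation tests. Alternatives were other scalings, DESeq2 (1.42.0), a likelihood ratio test, other filters, a replicate block, all libraries in a single fit, marker scores and each library left out. The version 3 fit of edgeR, all 48 names, the length from exons and the ratios within a mouse were added after the data were seen.

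Members and lists were chosen with earlier results of these data known. Named throughout were the 5 immunoproteasome and PA28 alpha-beta genes, their counterparts (Psmb5, Psmb6, Psmb7, Psme3 and Psme4), Psma8, Psmb11, Psmf1 and Psmg1 to Psmg4. In each comparison up to 3 passing members at either end of the log2 fold changes were also named, or 1 at either end if none passed. Pomp, Nfe2l1, Irf1, Nlrc5, Tap1, Tap2 and up to 2 more a list were named too, and 1 further gene of that rule is not reported here. The genes typed otherwise (other than Psmb6 and Psmf1), Psmd3, Psmc3, Psma1, Sem1 and Nfe2l2 were named after their values were seen. So were Irf8 in AS over WT and between subpopulations, Erap1 and Pdia3, and the single leukocyte markers other than Ptprc.

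The labels give dimtdT and brighttdT libraries of the same replicate number the same mouse, and their deviations from group means correlated at 0.274, 0.216 and 0.102 in WT and 0.0796, 0.385 and 0.174 in AS. WT and AS share only numbers.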

Additional observations from a re-analysis of the deposited data

Results flagged for a closer look

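The change of AS over WT differed between brighttdT and dimtdT for 4 named genes in the interaction test (edgeR quasi-likelihood, Benjamini-Hochberg adjustment over all genes), and none is a proteasome gene. For Cdh5 the difference was 2.61 on the log2 scale (adjusted p 0.00652), with 0.59 in brighttdT (adjusted p 0.163) and -1.99 in dimtdT (adjusted p 0.0282). For Tek it was 2.96 (adjusted p 0.00432), with 0.34 in brighttdT and -2.60 in dimtdT. For Pecam1 it was 1.64 (adjusted p 0.0498, passing in 5 of 20 alternatives), with 0.69 and -0.93. For Irf8 it was 1.62 (adjusted p 0.0421, passing in 8 of 20 alternatives), with 1.53 and -0.05.
With edgeR, only Cdh5 and Tek passed in AS over WT itself among those 4 other genes, both in dimtdT alone, as Col4a5 did. DESeq2 called Irf8 as higher in brighttdT, and Irf8 passed there in 5 of 17 alternatives.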

How the results depend on the processing

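Counts of members that passed moved by setting. In dimtdT, AS over WT, the 2 calls became 3 with DESeq2 (Psmb10 added), 1 with RLE scaling (Psmd5 kept) and 1 with library sizes alone (Psmb8 kept), and 0 with the likelihood ratio test, the version 3 fit, every gene with a count, the replicate block, or either marker score, and 0 in each fit without a library. In brighttdT the 0 calls became 1 with DESeq2 and 2 with the leukocyte score, under which calls over all genes rose from 65 to 952 (6.61%). For brighttdT over dimtdT in WT, 2 calls became 4 with library sizes alone and 0 with the likelihood ratio test. They became 4 with the replicate block and 5 with all 12 libraries in a single fit. Over all genes 25.2, 24.5, 31.2 and 34.5% passed in these settings. With a library left out the calls ranged from 0 to 2, where 17.3 to 23.3% of all genes passed. In AS the 9 calls became 5 with the likelihood ratio test and 5 with all 12 libraries, where 52.9 and 43.7% of all genes passed. With a library left out they ranged from 5 to 9, where 45.6 to 52.2% of all genes passed. The interaction gave 0 under every alternative run.

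Among the 5 genes and the members that passed, directions turned for 14 values across alternatives. With the proximal tubule score in AS over WT, Psmb9 became -0.88, Psme1 -0.11 and Psme2 -0.81 in dimtdT, and Psmb10 -0.0363, Psme1 -0.0132 and Psme2 -0.20 in brighttdT. Without AS-dimtdT replicate 3, Psme2 became -0.0173 in dimtdT (up to 0.84 with another library left out). For AS mice, Psmb9 in brighttdT over dimtdT became 0.30 without AS-dimtdT replicate 3, 0.03 without AS-brighttdT replicate 1 and 0.08 without AS-brighttdT replicate 2 (down to -0.90). In the interaction, Psmb9 became -0.16 without AS-brighttdT replicate 3 (up to 1.06), Psme1 0.17 without AS-dimtdT replicate 3 and 0.07 without WT-brighttdT replicate 3 (down to -0.42), and Psme2 0.21 without AS-dimtdT replicate 3 (down to -0.73). Genes of the lists that did not pass turned too in AS over WT, with lowest values for Nlrc5 of -0.20 in dimtdT and -0.75 in brighttdT, for Tap2 of -0.18 in brighttdT, and for Irf1 of -0.30 and Nfe2l1 of -0.08 in dimtdT. The cause was not tested.

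Among the members the replicate block changed no AS over WT call but those of Psmb8 (1.05, adjusted p 0.108) and Psmd5 (-0.92, adjusted p 0.117) in dimtdT. Cdh5 also lost its call in dimtdT (adjusted p 0.0718), and calls over all genes went from 1263 to 494 in dimtdT and from 65 to 16 in brighttdT. WT and AS libraries of the same number correlated at -0.115 to 0.0492 in dimtdT and -0.151 to 0.124 in brighttdT. Over all genes, dimtdT calls fell from 1263 to 0 without AS-dimtdT replicate 1 and to 1 without replicate 3, to 0 with the leukocyte score and to 1 with the proximal tubule score, and brighttdT calls fell from 65 to 0 without AS-brighttdT replicate 1 or 3 or WT-brighttdT replicate 3, while they rose to 274, 281 and 275 without WT-brighttdT replicate 1 or 2 or AS-brighttdT replicate 2. In dimtdT they rose to 1825 without WT-dimtdT replicate 3. DESeq2 gave 2213 and 1117. All 48 names gave 2 calls in dimtdT and 0 in brighttdT.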
